A study of Homo sapiens with 40 samples.

Results

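The genes described here are 9 of the 19962 in the count table: the receptors EGFR, ERBB2 and ERBB3, the ligands AREG, EREG, HBEGF and TGFA, and the receptor inhibitors ERRFI1 and LRIG1. They were chosen by symbol, as named members of the epidermal growth factor (EGF) receptor system, through the Ensembl identifier of each row. Of the 9, 7 had enough counts to be tested and 2, AREG and EREG, did not.

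All 40 libraries came from RKO, an established human colorectal carcinoma line, here with a doxycycline-inducible Cas9 and GFP, and with a vector for guide RNAs that also carries BFP. The guides were directed at IGF2BP2 or IGF2BP3, which encode RNA-binding proteins, or at AAVS1, a control locus (lines sgIGF2BP2, sgIGF2BP3 and sgAAVS1). Each line had 4 libraries with doxycycline (Dox, 250 ng/mL, 72 h), which induces Cas9, and 4 with DMSO. The sgIGF2BP2 and sgIGF2BP3 lines had 4 more libraries each with a non-targeting siRNA (siControl) and with an siRNA pool against the line's own target (siIGF2BP2 or siIGF2BP3), both at 75 nM for 48 h. Every group, controls included, carries Cas9, GFP and a guide vector and received the nucleoside 4-thiouridine (s4U, 250 µM, 2 h), the label used in SLAMseq. The siRNA groups received neither Dox nor DMSO per the labels, so siControl differs from DMSO in the transfection, in the time and in the solvent. These cannot be told apart. The sgAAVS1 line has no siRNA groups.

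The receptors of this family are transmembrane tyrosine kinases. A ligand such as TGFA or HBEGF is made as a membrane precursor and released by a protease, chiefly ADAM17. EGFR then pairs with itself or with ERBB2 or ERBB3, and the active pair signals through RAS to the ERK kinases and through PI3 kinase. ERBB2 has no known ligand of its own, and ERBB3 has a weak kinase and depends on its partner. In intestinal epithelium this system drives growth and repair, and ERRFI1, which is transcribed when ERK signalling is active, binds the receptor kinases and shuts them off.

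The sequence before the start site is shown for the pair of members that rose with Dox in sgIGF2BP2 cells, ERRFI1 and HBEGF, and for AREG, a ligand close to the detection limit in these cells. RefSeq (GRCh38.p14) has a promoter window for 8 of the 9 members and none was matched for ERBB3. Each line gives the 250 bases before the start, 5′ to 3′ on the gene's strand, and capitals mark matches to the motifs searched on both strands. ERRFI1 is at chr1:8026310-8026559, minus strand, HBEGF at chr5:140346604-140346853, minus strand, and AREG at chr4:74444886-74445135, plus strand.
ERRFI1: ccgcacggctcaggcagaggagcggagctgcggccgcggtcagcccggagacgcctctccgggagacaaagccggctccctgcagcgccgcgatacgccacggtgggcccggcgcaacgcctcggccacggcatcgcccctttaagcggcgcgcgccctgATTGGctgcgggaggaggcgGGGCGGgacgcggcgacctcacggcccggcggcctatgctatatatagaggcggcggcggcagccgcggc
HBEGF: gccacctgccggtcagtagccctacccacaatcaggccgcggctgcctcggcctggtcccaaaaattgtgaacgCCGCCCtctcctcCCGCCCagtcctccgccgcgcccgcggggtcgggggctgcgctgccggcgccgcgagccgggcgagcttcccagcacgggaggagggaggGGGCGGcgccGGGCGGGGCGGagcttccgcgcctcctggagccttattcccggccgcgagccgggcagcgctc
AREG: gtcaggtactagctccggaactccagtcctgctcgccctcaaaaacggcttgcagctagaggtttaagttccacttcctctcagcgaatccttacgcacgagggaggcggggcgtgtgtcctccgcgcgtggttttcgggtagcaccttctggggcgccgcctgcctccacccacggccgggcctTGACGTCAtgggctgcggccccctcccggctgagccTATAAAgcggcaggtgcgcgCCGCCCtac

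The motifs searched were the cyclic AMP response element CRE (TGACGTCA), the site of the factor AP-1 (TGANTCA), and the SRF CArG box by its name. Of common core promoter elements, the TATA box was searched as TATAAA only. Other TATA-like stretches, such as tatatata near the end of the ERRFI1 line, were not counted or marked. The other motifs searched were the CCAAT box, by the letters of its name, and the GC box, a binding motif of SP1, as GGGCGG. The ERRFI1 window holds 1 CCAAT match, which begins 90 bases before the start, and 1 GC box, which begins 70 bases before it. The HBEGF window holds 5 GC boxes, of which the last 2 share a base, and no other motif searched. The AREG window holds a CRE 65 bases before the start, a TATA box 29 bases before it and a GC box 9 bases before it. These upstream stretches are 75.2% G and C in ERRFI1, 76.4% in HBEGF and 65.2% in AREG. Among 35116 RefSeq promoter windows of 300 bases (250 before and 50 after a start), 45.0% hold a GC box, 34.6% a CCAAT match, 11.5% the TATA box, 7.71% an AP-1 site, 1.85% a CRE and 1.29% an SRF CArG box. GC boxes and CCAAT matches are thus more frequent among promoters than the CRE found in AREG. A match is a match of letters, and no binding was measured.

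Both targeted genes were lower in the groups meant to deplete them. IGF2BP2 stood at 85.3 ± 1.58 CPM (counts scaled to the TMM-normalized total of each library; SD, n = 4) with DMSO and 33.9 ± 3.50 with Dox in sgIGF2BP2 cells, and at 108 ± 4.10 with siControl and 30.2 ± 1.08 with siIGF2BP2. IGF2BP3 stood at 180 ± 4.09 with DMSO and 56.2 ± 3.62 with Dox in sgIGF2BP3 cells, and at 170 ± 4.78 with siControl and 24.7 ± 1.56 with siIGF2BP3. IGF2BP3 shares 1521 exon bases with MALSU1 on the opposite strand. In sgIGF2BP2 cells with Dox, IGF2BP3 was 151 ± 4.24 CPM, against 179 ± 9.22 with DMSO. Total counts per library ran from 1.00e+07 to 2.48e+07 (median 1.35e+07). Replicate 2 of sgIGF2BP2 with Dox differed most from the other libraries of its group, so results on that group are also given without it. Of 10 colorectal epithelial markers, 4 were tested (EPCAM, KRT8, KRT18 and CDX2), LGR5 and KRT20 were at 0, and CDH1, KRT19, VIL1 and CDH17 had at most 9 counts each in all 40 libraries. The summed level of these markers was lowest with siIGF2BP2, at 219 CPM, and highest with Dox in sgAAVS1 cells, at 298 CPM, and its part in the results was not tested. With siControl against DMSO 2 of these 4 fell in each line, where 8.16% of all tested genes fell in sgIGF2BP2 and 8.54% in sgIGF2BP3 cells. With siIGF2BP2 1 rose and 1 fell (18.4% of all tested genes in each direction). With Dox none passed in any line, beside 15.9% of all tested genes called in sgAAVS1, 20.4% in sgIGF2BP2 and 2.64% in sgIGF2BP3 cells. None of 6 fibroblast, 5 blood cell or 3 endothelial markers was tested, and their summed levels were at most 0.546, 0.201 and 0.203 CPM in any group. Nothing in the labels says that the 4 wells of a group were independent cultures, so p-values measure the spread between these libraries, which may be technical.

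ERBB2 was the most abundant member per length, and the 2 untested ligands the least. Scaled to exon length, the mean level over the 10 groups was 14.1 CPM per kb for ERBB2, 3.59 for HBEGF, 3.09 for ERRFI1, 2.50 for EGFR, 1.01 for LRIG1, 0.590 for ERBB3, 0.466 for TGFA, 0.137 for AREG and 0.000602 for EREG. On that scale HBEGF was the leading ligand in these cells, and its value was above that of EGFR, the receptor it binds. Before scaling to length EGFR was the higher of the pair, at 31.2 against 10.8 CPM. Exon length here is the union of all annotated exons of a gene and can exceed the length of its main transcript. The scaling also assumes reads spread along the whole transcript, which was not tested. The order of HBEGF and EGFR therefore depends on the length used and on that assumption. ERBB2 lies on chromosome 17 (39687914 to 39730426, plus strand; GENCODE release 29, GRCh38), and EGFR on chromosome 7 (55019021 to 55211628, plus strand). ERBB3 lies on chromosome 12 (56076799 to 56103505, plus strand) and LRIG1 on chromosome 3 (66378797 to 66501263, minus strand). Some exon bases of ERBB2 also belong to PGAP3 (194 bases) and MIEN1 (571 bases) on the opposite strand, and 907 exon bases of LRIG1 belong to SLC25A26 on the opposite strand. The strand setting of the deposited counts is not given in the sources used here, so part of the counts of ERBB2 and LRIG1 could come from those neighbours.

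**Figure D1:**
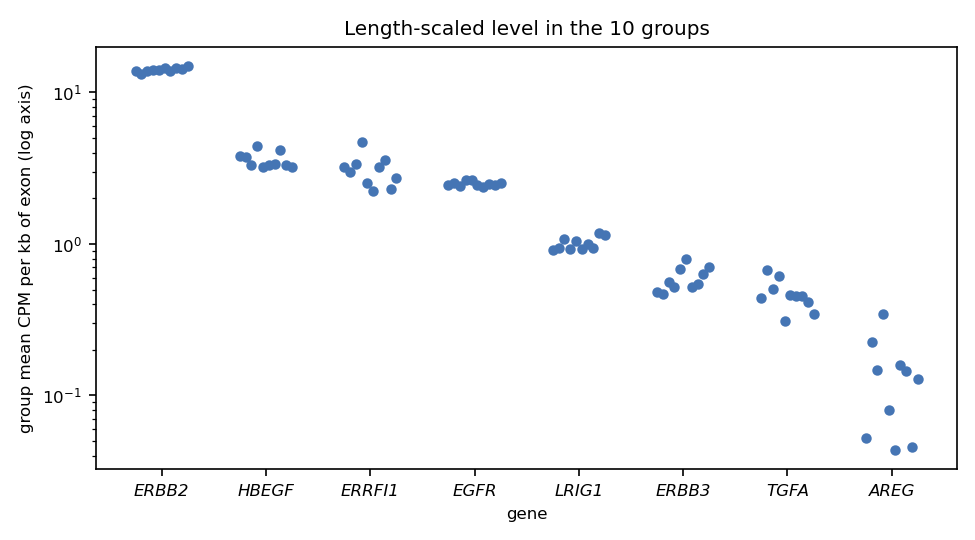
Mean level of 8 of the genes (y axis, CPM per kb of exon, log axis) by gene (x axis). Each point is the mean of 4 libraries of 1 group, with the 10 groups side by side, and EREG is left out because 8 of its group means are 0. ERBB2 sits near 14.1 in each group, and AREG spreads from 0.0437 to 0.345.

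EGFR and ERBB2 varied little over the 10 groups, and ERBB3 varied more. EGFR, the receptor of all 4 ligands here, ranged over group means from 29.7 CPM (sgIGF2BP3 with DMSO) to 33.3 CPM (sgIGF2BP2 with siControl), with libraries from 26.4 to 35.8 CPM. ERBB2, the partner without a ligand, ranged from 137 CPM (sgAAVS1 with Dox) to 154 CPM (sgIGF2BP3 with siIGF2BP3), with libraries from 131 to 160 CPM. Ordered by level, no 2 neighbouring groups differed by more than the larger of their SDs for EGFR or for ERBB2. ERBB3 had the widest range of the receptors, from 4.22 CPM (sgAAVS1 with Dox) to 7.14 CPM (sgIGF2BP2 with siIGF2BP2), a ratio of 1.69. It also had the fewest counts of the receptors, at most 123 in a library. Its average SD within groups was 11.5% of the mean, against 5.67% for EGFR and 3.48% for ERBB2. Its 4 libraries with siIGF2BP2 were at 6.84, 6.47, 7.88 and 7.36 CPM, and those with siControl in the same line at 5.92, 5.70, 6.49 and 6.78 CPM. The groups overlap, because 1 siIGF2BP2 library falls within the siControl range. In the order of group means of ERBB3, 1 of 9 gaps exceeds the larger SD, that of 0.823 CPM (SD 0.667) between siIGF2BP2 and siIGF2BP3.

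No receptor passed the test in any of the 15 comparisons, in which a gene is called when its adjusted p over the 11428 tested genes is under 0.05 (edgeR's quasi-likelihood test, Benjamini-Hochberg adjustment). Dox against DMSO in sgIGF2BP2 cells gave EGFR a log2 fold change of 0.14 (95% interval 0.01 to 0.27, edgeR adjusted p = 0.111), ERBB2 0.02 (−0.06 to 0.10, 0.760) and ERBB3 −0.13 (−0.40 to 0.15, 0.573). With siIGF2BP2 the log2 changes were −0.12 for EGFR (−0.24 to 0.00, adjusted p = 0.126), 0.06 for ERBB2 (−0.02 to 0.14, 0.224) and 0.21 for ERBB3 (−0.03 to 0.45, 0.175). Depletion of IGF2BP3 gave EGFR 0.08 with Dox and 0.06 with siIGF2BP3, and gave ERBB2 0.07 with either. For depletion of IGF2BP3, the intervals of ERBB2 reach 0.15 on the log2 scale with Dox and with siIGF2BP3, and those of ERBB3 reach 0.33 and 0.38. Between siControl and DMSO, ERBB3 was higher in value in both lines, by 0.28 in sgIGF2BP2 (adjusted p = 0.118) and 0.29 in sgIGF2BP3 (0.121), and neither passed. In 3 fits that leave out 1 library a receptor came under the threshold: EGFR with siIGF2BP2 without its replicate 2 (adjusted p = 0.0394), EGFR with siControl in sgIGF2BP2 without replicate 3 (0.0455), and the difference in Dox effect on ERBB2 between sgIGF2BP3 and sgAAVS1 without replicate 4 of sgAAVS1 with DMSO (0.0259, against 0.0963 with all libraries).

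**Figure D2:**
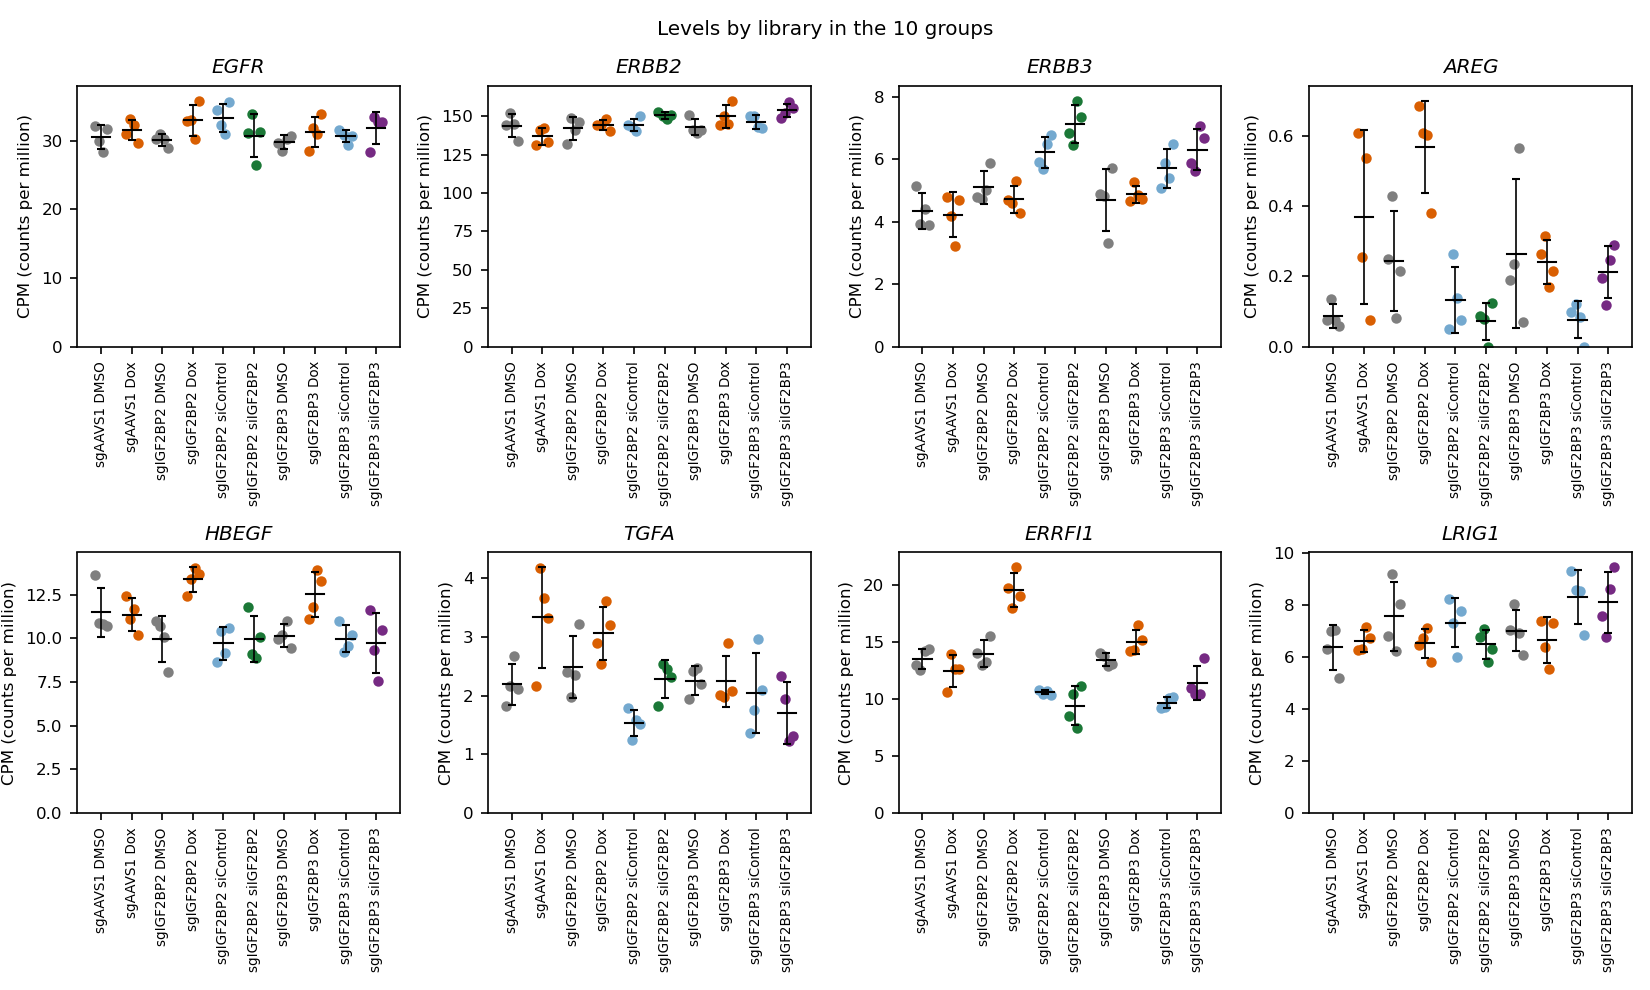
Level of 8 of the genes (y axis, CPM, from 0) in each library, by group (x axis). Points are libraries, grey for DMSO, orange for Dox, light blue for siControl, green for siIGF2BP2 and purple for siIGF2BP3, and the black bars are the mean and SD of 4. ERRFI1 is highest in sgIGF2BP2 with Dox (18.0 to 21.6 CPM), EGFR and ERBB2 are level across groups, and AREG reaches at most 0.684 CPM.

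HBEGF, heparin-binding EGF-like growth factor (chromosome 5, 140332843 to 140346631, minus strand), rose with Dox in sgIGF2BP2 cells. The 4 libraries went from 11.0, 10.7, 10.1 and 8.09 CPM with DMSO to 12.4, 13.4, 14.0 and 13.7 CPM with Dox. All 4 Dox libraries lie above all 4 DMSO libraries. The log2 fold change was 0.43 (SE 0.103, edgeR adjusted p = 0.00132), a 1.35-fold rise, and it was 0.43 (0.00437) without replicate 2 of that Dox group. In bulk libraries such as these, a change in the make-up of the cells and a change of RNA per cell cannot be told apart.

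In sgAAVS1 cells, where Dox induces Cas9 against the control locus, HBEGF showed no such difference. Its libraries were at 13.6, 10.9, 10.8 and 10.7 CPM with DMSO and 12.4, 11.1, 11.7 and 10.2 CPM with Dox, a log2 change of −0.01 (95% interval −0.22 to 0.20, adjusted p = 0.949). Replicate 1 with DMSO stands above the other 3. The test of the difference between the Dox effects gave 0.44 (SE 0.147, adjusted p = 0.0527), just outside the threshold, so the rise in sgIGF2BP2 cells was not shown to differ from that in the control line. That difference was called in 7 of the 20 alternative fits that gave a value, among them the fit without a filter on low counts, and its lowest adjusted p was 0.0340.

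In the sgIGF2BP3 line HBEGF was also higher in value with Dox. Its libraries were at 9.96, 10.2, 11.0 and 9.44 CPM with DMSO and 11.1, 11.8, 13.9 and 13.3 CPM with Dox, without overlap. The log2 change of 0.31 (SE 0.105, 95% interval 0.10 to 0.51) did not pass (edgeR adjusted p = 0.100). Its difference from the Dox effect in sgIGF2BP2 cells, −0.12 (−0.42 to 0.17), did not pass either (edgeR adjusted p = 0.772). Neither siRNA moved HBEGF past the test: the log2 change was 0.04 (−0.18 to 0.25) with siIGF2BP2 and −0.02 (−0.24 to 0.20) with siIGF2BP3. The 2 Dox groups of the targeted lines are the highest of the 10 groups for HBEGF, at 13.4 ± 0.718 and 12.5 ± 1.30 CPM (SD, n = 4), and these neighbours do not differ beyond their SDs.

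TGFA, transforming growth factor alpha (chromosome 2, 70447280 to 70554193, minus strand), was a low-count gene, with at most 58 counts in a library and 1287 in all 40. With Dox in sgAAVS1 cells it went from 1.82, 2.17, 2.67 and 2.12 CPM to 2.16, 4.18, 3.66 and 3.33 CPM. Of the Dox libraries 3 lie above the DMSO range and replicate 1 lies within it. The log2 change was 0.58 (SE 0.200, edgeR adjusted p = 0.0364), and the call was lost without any one of 6 of the 8 libraries compared. The same treatment gave 0.27 (adjusted p = 0.370) in sgIGF2BP2 cells and −0.02 (0.982) in sgIGF2BP3 cells. The differences between these Dox effects did not pass either, at −0.31 (0.562) and −0.60 (0.205).

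TGFA was also called with siIGF2BP2. Its libraries were at 1.79, 1.25, 1.59 and 1.51 CPM with siControl and at 1.82, 2.54, 2.45 and 2.31 CPM with siIGF2BP2, a log2 change of 0.57 (SE 0.224, adjusted p = 0.0402). The groups do not overlap, but the lowest siIGF2BP2 library is next to the highest siControl library. The call was lost without the filter on low counts and without any one of 6 of the 8 libraries. The same siControl libraries were lower than DMSO in that line, where the DMSO libraries stood at 2.40, 1.97, 2.36 and 3.22 CPM, by a log2 change of −0.69 (SE 0.215, adjusted p = 0.0167). That call was lost without replicate 4 of DMSO or replicate 2 of siControl, with an adjusted p of at most 0.0965. These comparisons share the siControl libraries, which have the lowest group mean of TGFA, 1.53 ± 0.223 CPM. siIGF2BP3 gave −0.23 (95% interval −0.69 to 0.23), and the difference between the siRNA effects, −0.80, did not pass (adjusted p = 0.0741), but did without replicate 1 of siControl or replicate 1 of siIGF2BP3 in sgIGF2BP3 cells, with a lowest adjusted p of 0.0337.

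AREG, amphiregulin (chromosome 4, 74445134 to 74455009, plus strand), gave 124 counts in all 40 libraries, at most 11 in one, and was under the filter on low counts. In sgIGF2BP2 cells the libraries held 3, 5, 2 and 3 counts with DMSO and 9, 11, 6 and 5 with Dox. Summed over the group, that is 0.209 CPM with DMSO (exact 95% Poisson interval 0.111 to 0.357) and 0.571 CPM with Dox (0.388 to 0.810), intervals that cover counting error only and do not overlap. The libraries themselves overlap, from 0.381 to 0.684 CPM with Dox and up to 0.429 CPM with DMSO, and an exact two-sided permutation test of the 4 against 4 gave p = 0.0571, adjusted 0.200 over 7 comparisons, where 0.0286 is the smallest p possible. In sgAAVS1 cells the libraries held 1, 2, 1 and 1 counts with DMSO and 9, 3, 6 and 1 with Dox (0.0861 and 0.373 CPM summed, exact permutation p = 0.114, adjusted 0.200). A fit of edgeR without the filter gave adjusted p-values of 0.0526 in sgAAVS1 and 0.0669 in sgIGF2BP2 cells, and 0.894 for the difference between them. With Dox in sgIGF2BP3 cells the counts were 3, 4, 2 and 3, against 3, 4, 8 and 1 with DMSO (exact permutation p = 0.886). The siRNA libraries held from 0 to 4 counts each: 1, 4, 2 and 1 with siControl and 1, 1, 0 and 2 with siIGF2BP2 in one line, and 1, 2, 1 and 0 with siControl and 3, 2, 3 and 4 with siIGF2BP3 in the other (exact permutation p = 0.371 and 0.0571, adjusted 0.433 and 0.200).

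EREG, epiregulin (chromosome 4, 74365143 to 74388751, plus strand), had 1 count in each of 2 libraries, sgIGF2BP3 replicate 2 with DMSO and replicate 2 with Dox, and 0 in the other 38. A group total of 0 allows up to 3 counts, which is 0.0479 CPM in the deepest such group (sgIGF2BP2 with siControl) and 0.0589 CPM in sgAAVS1 with Dox. No change of EREG was detectable at this depth.

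ERRFI1 (chromosome 1, 8004404 to 8026308, minus strand), the feedback inhibitor also called MIG6, had the clearest pattern of the 9. With Dox in sgIGF2BP2 cells it went from 14.1, 13.0, 13.3 and 15.6 CPM to 19.8, 18.0, 21.6 and 19.1 CPM. These 4 Dox libraries are above every other library of the 40. The log2 change was 0.48 (SE 0.086, edgeR adjusted p = 1.92e-05), a 1.39-fold rise with a 95% interval from 1.24 to 1.57, and it was 0.52 (1.58e-05) without replicate 2 of the Dox group.

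The control line went the other way in value. In sgAAVS1 cells ERRFI1 was at 13.0, 12.6, 14.2 and 14.4 CPM with DMSO and 10.6, 14.0, 12.7 and 12.7 CPM with Dox, a log2 change of −0.12 that did not pass (adjusted p = 0.415). The Dox effects of the 2 lines differed by 0.60 (SE 0.128, edgeR adjusted p = 0.00108), higher in sgIGF2BP2, and by 0.65 (0.000628) without replicate 2 of its Dox group. In sgIGF2BP3 cells the values were 14.1, 13.8, 12.9 and 13.1 CPM with DMSO and 14.2, 14.3, 16.5 and 15.2 CPM with Dox. The groups do not overlap, yet the change of 0.16 (95% interval −0.02 to 0.34) did not pass (adjusted p = 0.379). Its difference from the Dox effect in sgAAVS1, 0.28, did not pass (0.174), and neither did that from sgIGF2BP2, −0.32 (0.173).

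The siRNA against IGF2BP2 did not repeat the rise. ERRFI1 was at 10.8, 10.5, 10.7 and 10.4 CPM with siControl and at 8.49, 10.5, 7.51 and 11.2 CPM with siIGF2BP2, a log2 change of −0.16 (95% interval −0.36 to 0.04, adjusted p = 0.226). That interval lies wholly below the interval of the Dox effect in the same line, 0.31 to 0.65, and the difference between siRNA and Dox effects was not tested. With siIGF2BP3 the values went from 9.19, 9.35, 10.1 and 10.2 CPM to 11.0, 10.5, 10.5 and 13.6 CPM, without overlap, a change of 0.23 that did not pass (adjusted p = 0.277). The siRNA effects differed by 0.39 (SE 0.143, edgeR adjusted p = 0.0486), higher with siIGF2BP3. This call was lost in 13 of 21 alternative fits, among them the fit on only the groups compared and 11 of the 16 fits that leave out 1 library, with an adjusted p of at most 0.161. Those 11 include the fit without replicate 3 of siIGF2BP2, the library at 7.51 CPM.

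ERRFI1 was lower with siControl than with DMSO in both lines, a comparison in which transfection, time and solvent all differ. siControl was below DMSO by a log2 change of −0.40 in sgIGF2BP2 cells (SE 0.093, edgeR adjusted p = 0.00104) and −0.48 in sgIGF2BP3 cells (SE 0.098, 0.000166), with no overlap of the 4 and 4 libraries in either. The siControl libraries, 9.19 to 10.8 CPM in both lines, are low beside the DMSO libraries of the 3 lines, 12.6 to 15.6 CPM. So the 4 lowest group means of ERRFI1 belong to the 4 siRNA groups, and the highest, 19.6 ± 1.51 CPM, to sgIGF2BP2 with Dox. Between neighbours in this order only 2 of 9 gaps exceed the larger SD: that below sgIGF2BP2 with Dox, and that between siControl of the 2 lines.

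LRIG1, a membrane protein that promotes degradation of the receptors, passed in no comparison. Its group means ranged from 6.37 CPM (sgAAVS1 with DMSO) to 8.30 CPM (sgIGF2BP3 with siControl), and no neighbouring pair of groups in their order differed beyond the larger SD. With Dox in sgIGF2BP2 cells its log2 change was −0.18 (95% interval −0.43 to 0.07) and with siIGF2BP2 −0.19 (−0.44 to 0.07). Both intervals exclude a rise of the size seen in ERRFI1 with Dox, 0.48. In sgIGF2BP3 cells siControl gave 0.23 over DMSO (−0.01 to 0.48, edgeR adjusted p = 0.181).

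**Figure D3:**
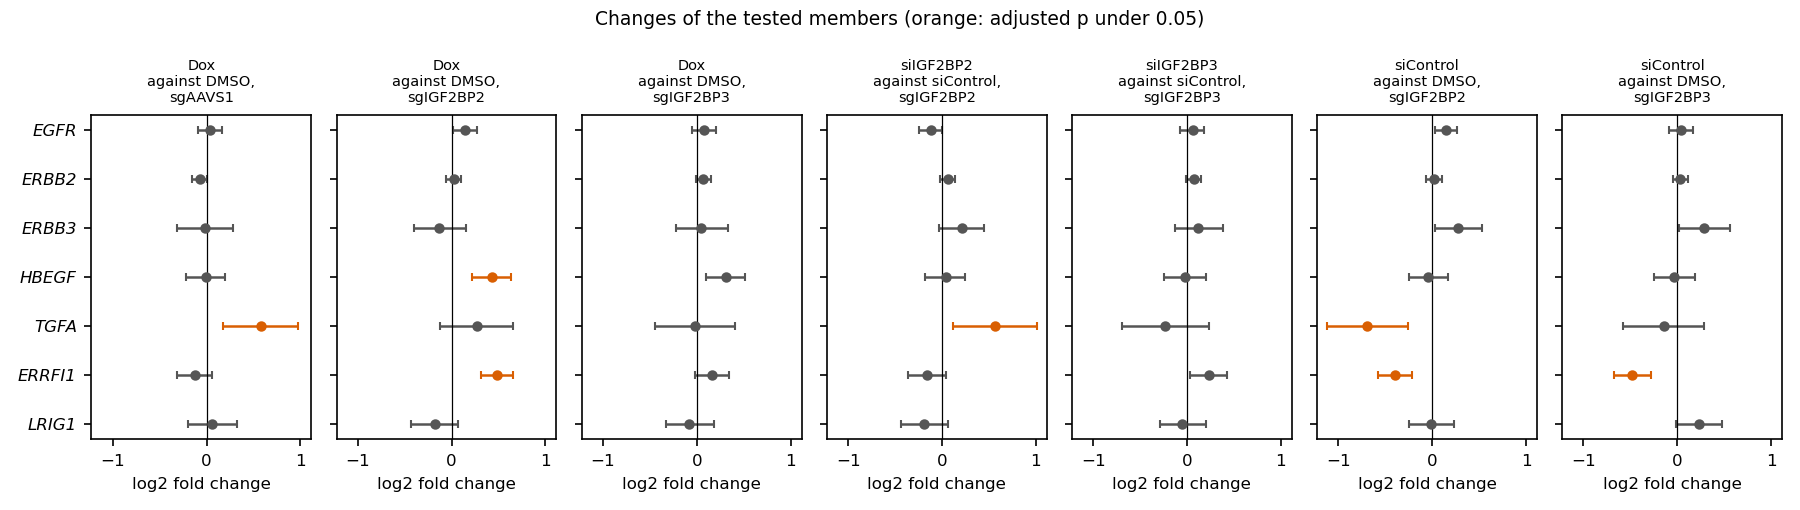
Log2 fold change (x axis) of the 7 tested genes (rows) in 7 comparisons (panels), with 95% intervals, and orange where the edgeR adjusted p is under 0.05. Dox in sgIGF2BP2 is the panel with HBEGF (0.43) and ERRFI1 (0.48) in orange, TGFA is called in 3 panels, and no receptor is in orange, with ERBB3 reaching 0.28 and 0.29 with siControl.

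Counted over the 7 tested members, Dox called 1 in sgAAVS1 cells (TGFA, higher), where 15.9% of all 11428 tested genes were called (7.25% higher and 8.68% lower). Dox called 2 in sgIGF2BP2 cells (HBEGF and ERRFI1, both higher), where 20.4% of all tested genes were called (10.0% higher and 10.4% lower), and 2 also without replicate 2 of that group. It called 0 in sgIGF2BP3 cells (2.64% of tested genes, with 1.64% higher and 1.01% lower). The siRNA comparisons called 1 with siIGF2BP2 (TGFA, higher), where 36.8% of tested genes were called (18.4% higher and 18.4% lower), and 0 with siIGF2BP3 (2.34%, with 0.936% higher and 1.40% lower). Each member is 14.3% of the 7, so with 1 or 2 called the share of members is coarse: it was 14.3% with Dox in sgAAVS1 cells and with siIGF2BP2, and 28.6% with Dox in sgIGF2BP2 cells.

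The difference of the Dox effects between sgIGF2BP2 and sgAAVS1 called 1 member (ERRFI1, higher in sgIGF2BP2), where 6.97% of tested genes were called (4.01% higher and 2.97% lower). That between sgIGF2BP3 and sgAAVS1 called 0 (7.78%, with 4.53% higher and 3.25% lower), and that between sgIGF2BP3 and sgIGF2BP2 called 0 (2.91%, with 1.69% higher and 1.23% lower). The difference of the siRNA effects called 1 (ERRFI1, higher for siIGF2BP3; 18.7% of tested genes, with 9.88% higher and 8.82% lower). With siControl against DMSO, 2 members were called in sgIGF2BP2 cells (TGFA and ERRFI1, both lower; 18.4% of tested genes, with 10.2% higher and 8.16% lower) and 1 in sgIGF2BP3 cells (ERRFI1, lower; 19.4%, with 10.9% higher and 8.54% lower). Between lines under the same control treatment, none of the members was called in 4 comparisons, each with 0.0175% of tested genes called (for siControl, 0.00875% higher and 0.00875% lower). DESeq2 called 0 members wherever edgeR's count was 0. At an unadjusted p under 0.05 edgeR gave 1 member with Dox in sgIGF2BP3 cells (HBEGF, 0.00477) and 1 with siIGF2BP3 (ERRFI1, 0.0281). It gave 4 for the difference between sgIGF2BP3 and sgAAVS1 (ERBB2, HBEGF, TGFA and ERRFI1), 1 for that between sgIGF2BP3 and sgIGF2BP2 (ERRFI1), and 0 between lines.

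The rest of the pathway was read, as RNA levels, from lists of genes that act with these receptors. The activity of the receptors and of ERK was not measured here, so what moved these genes was not tested. Of 8 other receptors and ligands, only BTC, the ligand betacellulin, was tested, and it passed in no comparison. With Dox in sgAAVS1 cells BTC was at 1.81 CPM against 1.15 with DMSO, a log2 change of 0.66 (SE 0.289, edgeR adjusted p = 0.115). Of 5 genes that release ligands, ADAM17, the main protease for HBEGF, TGFA and AREG precursors, fell with both siRNAs, by a log2 change of −0.25 with siIGF2BP2 (47.4 against 56.2 CPM, adjusted p = 5.28e-05) and −0.19 with siIGF2BP3 (47.9 against 54.7 CPM, 0.0203). The second call was lost without any one of 4 libraries. The siControl libraries behind the first were above DMSO, by 0.18 (0.00612). With Dox, 2 of the 5 rose in sgAAVS1 cells (7.25% of all tested genes rose) and 2 in sgIGF2BP2 cells (10.0%), among them FRMD8 by 0.17 in sgAAVS1 (0.0123) and RHBDF2 by 0.30 in sgIGF2BP2 (0.00346), both partners of ADAM17. The other called gene was RHBDF1 in each line, up by 0.15 in sgAAVS1 (edgeR adjusted p = 0.0494) and 0.18 in sgIGF2BP2 (0.0136), with overlapping libraries. Without replicate 2 of Dox in sgIGF2BP2 cells, 1 of the 5 was called there. The FRMD8 call was lost without replicate 4 of DMSO or replicate 2 of Dox.

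Of 19 adaptors and core signalling genes, 8 fell and 1 rose with siIGF2BP2, where 18.4% of all tested genes fell and 18.4% rose. MAPK3, which encodes ERK1, went from 92.6 ± 6.16 to 73.0 ± 4.30 CPM (SD, n = 4), a log2 change of −0.34 (SE 0.047, edgeR adjusted p = 1.62e-08), and PIK3CA, the catalytic subunit of PI3 kinase, fell by 0.42 (5.33e-06). With Dox in sgIGF2BP2 cells 1 of the 19 rose and 1, PTPN11, fell by 0.12 (0.0112), where 10.0% of all tested genes rose and 10.4% fell. Without replicate 2 of Dox, 1 of the 19 was called. In sgAAVS1 cells Dox gave rises of SHC1 by 0.21 (1.35e-07) and PIK3CA by 0.26 (0.00877) and a fall of GRB2, the adaptor that recruits SOS to the receptors, by 0.16 (0.000209). None of the 19 passed with siIGF2BP3, where 2.34% of all tested genes were called and the median log2 change of the list was −0.03.

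Of 14 genes of receptor turnover, 3 rose and none fell with Dox in sgIGF2BP2 cells, where 10.0% of all tested genes rose and 10.4% fell. CBLB, a ubiquitin ligase for active receptors, rose from 68.2 ± 5.53 to 98.4 ± 6.67 CPM, a log2 change of 0.53 (SE 0.050, edgeR adjusted p = 2.76e-13). PTPN1, a phosphatase that acts on EGFR, rose by 0.09 (0.0219), a call lost without the filter on low counts, on only the groups compared, and without either of 2 libraries. In sgAAVS1 cells CBLB was at 67.1 against 68.6 CPM (adjusted p = 0.765), and the Dox effects differed by 0.56 (5.24e-08). CBLB was lower with siIGF2BP2 by 0.30 (1.45e-06) and with siIGF2BP3 by 0.27 (0.000172), each against siControl, and siControl itself was higher than DMSO by 0.50 (1.60e-12) in sgIGF2BP2 and 0.46 (3.21e-11) in sgIGF2BP3 cells. The 4 siControl libraries are shared by both kinds of comparison in each line. With siIGF2BP2, 4 of the 14 rose and 3 fell, beside 18.4% of all tested genes in each direction. Those that fell include CBL, a relative of CBLB, by 0.22 (1.76e-05) and PTPN1 by 0.22 (1.20e-08). With Dox in sgAAVS1 cells 4 rose and 2 fell (7.25% and 8.68% of all tested genes), with STAM up by 0.31 (9.28e-05) and HGS down by 0.23 (7.45e-08), both parts of the sorting machinery that sends receptors to lysosomes. CBL rose there by 0.13 (0.0215), a call lost without any one of 3 libraries.

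Genes that ERK signalling induces moved in both directions with Dox in sgIGF2BP2 cells. Of 15, 5 rose and 4 fell, where 10.0% of all tested genes rose and 10.4% fell, and the median log2 change of the 15 was 0.05 against 0.01 over all tested genes. DUSP5, a phosphatase that inactivates ERK, went from 55.0 ± 3.20 to 83.4 ± 8.25 CPM, a log2 change of 0.60 (SE 0.056, edgeR adjusted p = 3.05e-13). SPRY2, an inhibitor of RAS signalling, rose by 0.47 (3.16e-06), and DUSP6, another ERK phosphatase, by 0.35 (3.03e-10). EGR1 and PHLDA1, also ERK targets, fell by 0.19 (0.000797) and 0.21 (3.30e-05). Without replicate 2 of Dox the list still had 9 called genes.

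In the control line the same treatment lowered 5 of the 15 and raised none, where 8.68% of all tested genes fell and 7.25% rose. DUSP6 went from 135 to 106 CPM, a log2 change of −0.34 (SE 0.041, edgeR adjusted p = 1.62e-09), PHLDA1 fell by 0.22 (2.89e-05) and SPRY4 by 0.20 (5.27e-05). The Dox effects of sgIGF2BP2 and sgAAVS1 cells differed for 5 of the 15, each higher in sgIGF2BP2, where 4.01% of all tested genes were called higher: DUSP5 by 0.80 (2.63e-11), DUSP6 by 0.69 (8.91e-15) and SPRY2 by 0.47 (0.00441) are among them. DUSP6 also differed before Dox: it was lower in sgIGF2BP2 than in sgAAVS1 cells with DMSO, at 112 against 135 CPM, by a log2 change of −0.27 (3.61e-05), and was one of the 2 genes called between those lines. In sgIGF2BP3 cells none of the 15 passed with Dox, where 2.64% of all tested genes were called. DUSP6 was at 127 against 118 CPM there (edgeR adjusted p = 0.150). The Dox effects of sgIGF2BP3 and sgAAVS1 cells still differed for 5 of the 15. Of these, 4 were higher and 1 lower in sgIGF2BP3, where 4.53% of all tested genes were called higher and 3.25% lower. DUSP6 was among the higher ones, by 0.44 (1.51e-07). With DMSO, DUSP6 was lower in sgIGF2BP3 than in sgAAVS1 cells too, at 118 against 135 CPM, by a log2 change of −0.19 (edgeR adjusted p = 0.0445). ERRFI1, itself an ERK target, was kept out of this list because it is a member.

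With siIGF2BP2, 7 of the 15 fell and 2 rose, where 18.4% of all tested genes fell and 18.4% rose. IER3, an immediate early gene, went from 13.3 ± 0.719 to 5.87 ± 1.13 CPM, a log2 change of −1.17 (SE 0.119, edgeR adjusted p = 9.74e-13), and CCND1, cyclin D1, from 240 ± 12.2 to 137 ± 3.87 CPM, a change of −0.80 (SE 0.033, 1.95e-31). DUSP5 fell by 0.40 (2.84e-08), the opposite direction to its rise with Dox in the same line. With Dox, IER3 was at 12.0 against 10.4 CPM (adjusted p = 0.291) and CCND1 rose by 0.14 (0.00119). With siIGF2BP3, where 2.34% of all tested genes were called, DUSP6 alone passed, by 0.15 (0.0492), and lost the call in 8 of 13 alternative fits.

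**Figure D4:**
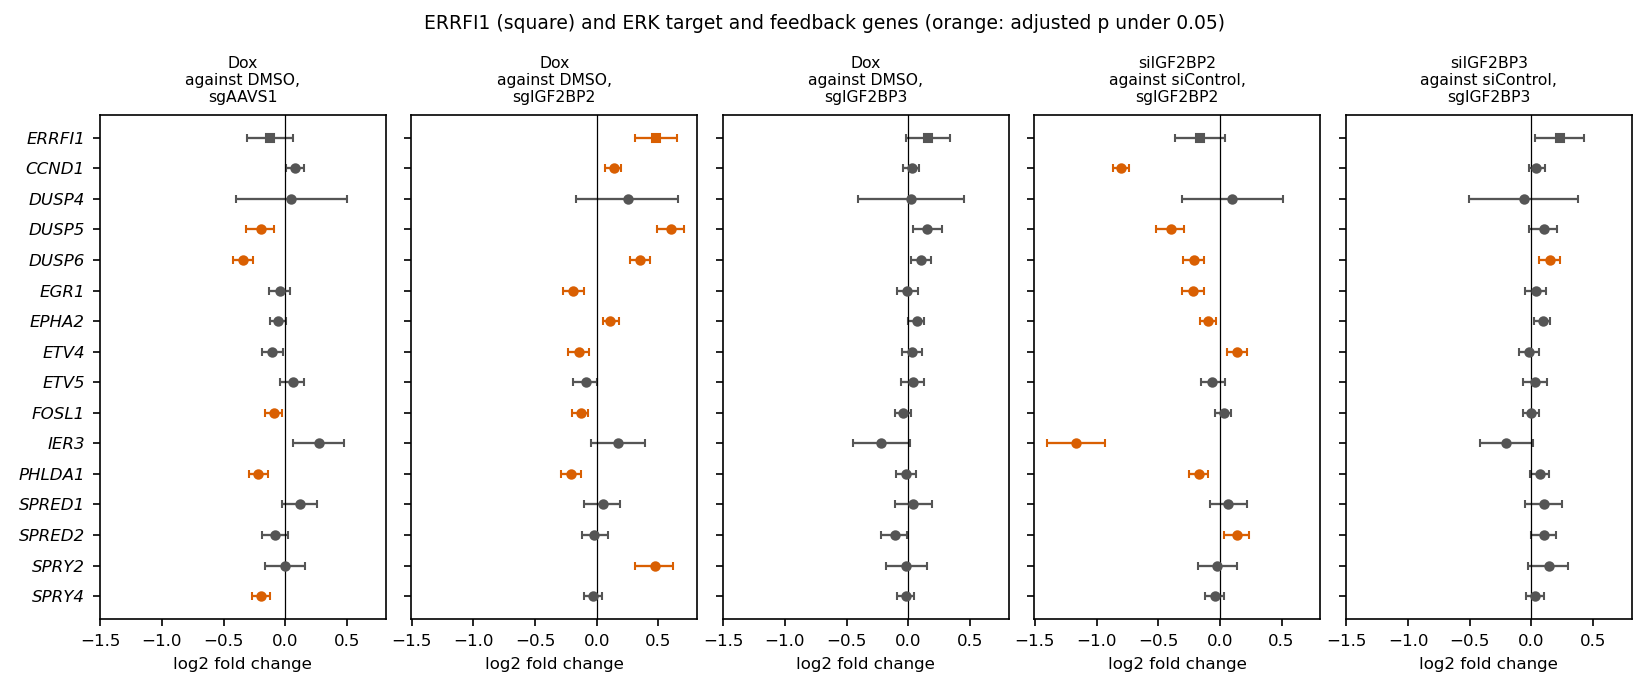
Log2 fold change (x axis) of ERRFI1 (square) and 15 ERK target and feedback genes (circles, rows) in the 5 treatment comparisons (panels), with 95% intervals, and orange where the edgeR adjusted p is under 0.05. DUSP5, DUSP6 and SPRY2 are to the right of 0 with Dox in sgIGF2BP2 cells, and IER3 and CCND1 are far to the left with siIGF2BP2.

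The level of HBEGF and that of ERRFI1 followed each other over the 10 groups. Pearson's r between their mean log2 CPM was 0.81 (Spearman's rho 0.73), the highest of the 21 pairs of tested members, followed by ERBB2 with ERBB3 (0.69, rho 0.73). The lowest was ERBB3 with ERRFI1, at −0.69 (rho −0.59): ERBB3 was high in value in the siRNA groups, where ERRFI1 was low. These are descriptions over 10 group means that share treatments, and 4 of the 10 are siRNA groups. Over the 9957 genes whose average log2 CPM reached 2, the pattern most like that of ERRFI1 was that of AKAP12 (r = 0.987, rho 0.988), followed by NUB1 (0.962) and MAST4 (0.955). For HBEGF they were SLC38A2 (0.951), SLC25A25 (0.947) and CA5B (0.941). ERBB2 was most like PIEZO1 (0.976), UBN1 (0.941) and ZNF526 (0.916), and ERBB3 most like RNF170 (0.965), RNF213 (0.963) and FARP1 (0.958). EGFR, with the flattest levels beside ERBB2, reached 0.894 with BHLHE40, 0.886 with IRAK2 and 0.835 with TMSB4X. LRIG1 reached 0.904 with FAM136A, 0.899 with ABCF1 and 0.893 with TMEM131. The closest genes were picked from 9957 over only 10 means, so a high r can arise by chance, and this was not tested. For EGFR, ERBB2 and LRIG1, no neighbouring groups differed beyond the larger of their SDs. TGFA, AREG and EREG are below that level and were not compared.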

How the data were processed

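Poly(A) RNA was sequenced from 40 libraries in 10 groups of 4, assigned by the labels. The authors deposited whole-number counts of reads per gene, not normalized. Per the submitters' processing notes, bcl2fastq 2.20.0.422 and STAR 2.7.5c were used with hg38. The counting tool, annotation and strand setting are not given in the sources used here. The counts take new and older RNA together, and base conversions were not analysed here. GENCODE release 29 (GRCh38) matched 19847 of 19962 identifiers, and gave names, exon lengths and coordinates.

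Genes were kept with filterByExpr by group (11428), scaled by TMM and tested with edgeR 4.0.16 (R 4.3.3) by quasi-likelihood, with all 10 groups in a single fit, in 15 comparisons. CPM uses TMM-scaled totals. A standard error is the log2 change over the root of its F. The test was run on simulated counts with known changes. Alternatives were DESeq2 1.42.0, its size factors in edgeR, no filter, only the groups compared, a replicate block and leaving out each library. Those for pathway genes were added after the data were seen.

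Members are named in each comparison. Of each pathway list, up to 3 called genes per treatment comparison with the greatest change and no overlap are named, and per member the 3 genes of most like pattern over groups. Other pathway values beside them (the difference tests, EGR1, RHBDF1, and values of named genes in other comparisons) were chosen after seeing values. The members and lists were chosen with earlier results of these data known. The shared variation between replicates (edgeR's common BCV) was 3.79%. Across the 60 replicate pairs the chi-square statistic per gene was 1.50 to 16.9, so no library was taken as a duplicate. No adjusted p over a list alone is given. Of the genes that the naming rule picks, 2 are not reported here and stay in the counts of their list.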

Additional observations from a re-analysis of the deposited data

Results flagged for a closer look

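In 4 of 70 groups of 4 libraries, 1 library of a tested member stood far from the other 3, by Dixon's test at the 95% level, and chance gives about 1 in 20 groups. EGFR was at 28.4 CPM in siIGF2BP3 replicate 1, where the others were at 32.7 to 33.5. HBEGF was at 13.6 CPM in sgAAVS1 with DMSO replicate 1, where the others were at 10.7 to 10.9. TGFA was at 2.90 CPM in sgIGF2BP3 with Dox replicate 3, where the others were at 1.97 to 2.08. ERRFI1 was at 13.6 CPM in siIGF2BP3 replicate 4, where the others were at 10.5 to 11.0.

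For ERRFI1, the effects also differed between lines, with Dox and with the siRNA pool against each line's own target. The Dox effect was higher in sgIGF2BP2 than in sgAAVS1 cells by a log2 change of 0.60 (edgeR adjusted p = 0.00108). The siRNA effect was higher for siIGF2BP3 than for siIGF2BP2 by 0.39 (0.0486), a call lost in 13 of 21 alternative fits.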

How the results depend on the processing

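Of the 9 calls of members, 5 held in every alternative fit run: HBEGF and ERRFI1 with Dox in sgIGF2BP2 cells, the difference of ERRFI1 from sgAAVS1, and ERRFI1 with siControl in both lines. No log2 change of a called member reversed. Without the filter on low counts, siIGF2BP2 called 0 members, the difference of the siRNA effects 0, and the difference of the Dox effects of sgIGF2BP2 and sgAAVS1 called 2 (HBEGF joins ERRFI1). The last was also 2 with the replicate block, and the difference of the siRNA effects was 0 on only the groups compared. The causes were not tested. Leaving out 1 library gave 0 to 1 members called with Dox in sgAAVS1, 0 to 1 with siIGF2BP2, 1 to 2 for the difference of Dox effects of sgIGF2BP2 and sgAAVS1, 0 to 1 for that of sgIGF2BP3 and sgAAVS1, 0 to 1 for the siRNA effects, and 1 to 3 with siControl in sgIGF2BP2.

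Replicate numbers were not used as pairs in the main fit: deviations of same-numbered libraries correlated weakly, at −0.09 to 0.1. Each library correlated best with its own number in 2 of 11 pairs of groups, siControl with DMSO in sgIGF2BP2 cells and DMSO of sgIGF2BP3 with sgAAVS1 cells, which is a hint from the data, not the design. The replicate block moved the count of called genes from 2326 to 2405 with Dox in sgIGF2BP2 cells, from 1820 to 1913 in sgAAVS1 cells, and from 2 to 6 between sgIGF2BP3 and sgAAVS1 cells with DMSO. It changed no other call of a member. Counts over all genes moved by over 1.5 times on only the groups compared for Dox in sgIGF2BP3 cells (302 to 477) and siIGF2BP3 (267 to 465). Between lines they moved from 2 to at most 35, reached without the filter on low counts between sgIGF2BP3 and sgAAVS1 cells with DMSO. Of 31 named pathway results 25 kept their call. DESeq2 gave no adjusted p for HBEGF in the difference of Dox effects. Depth limits TGFA, AREG and EREG most.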
